A study of Mus musculus with 4 samples.

Results

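The genes described here encode the translation initiation factors (eIF) and elongation factors (eEF), together with the kinases, methyltransferases and binding proteins named after them. They were chosen by symbol alone, as the RefSeq protein-coding genes whose symbol begins with Eif or Eef followed by a digit, which gave 71 of 21887 protein-coding genes. The study mapped MED1 by ChIP-seq in the mouse macrophage line RAW 264.7; MED1 belongs to Mediator, the complex through which transcription factors reach RNA polymerase II. Of 4 libraries, 2 came from untreated cells and 2 from cells given lipopolysaccharide (LPS) for 2 h, at 10 ng/mL by the sample labels or 100 ng/mL by the treatment protocol. The data are 1 list of intervals for the whole series, with no height and no library given for any interval, so untreated and stimulated cells could not be compared and the spread between libraries is unknown. All libraries come from the same established line, and the labels name no separate clones or cultures.

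Initiation factors bring the small ribosomal subunit and the initiator tRNA to the start codon of an mRNA. The eIF4F complex recognises the 5′ cap and unwinds the leader, eIF2 carries the initiator tRNA as a complex with GTP, and eIF3 is the large scaffold on the small subunit. Elongation factor eEF1A then delivers each aminoacyl-tRNA and eEF2 moves the ribosome along. Stress kinases that phosphorylate eIF2, and binding proteins that hold eIF4E, slow the first of these steps, and macrophages use both during infection.

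Intervals that touched were joined, which gave 22570 regions on chromosomes 1 to 19, X and Y. All 8 macrophage genes of a short marker list (Spi1, Csf1r, Lyz2, Cd14, Adgre1, Itgam, Cebpb and Irf8) had a region at a gene end. So did 0 of 6 markers of other cell types and 45.5% of all protein-coding genes. Within 50 kb of their ends the 8 had a median of 7 regions and the 6 a median of 1.5. The markers were chosen with earlier results of these data known, so they are no independent check of the cell type label. Depth is unknown, and the interval list carries no measure by which weak and strong calls could be told apart. Percentages below are of genes, and their Wilson 95% intervals treat genes as independent, which neighbouring genes are not.

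A MED1 region lay at an end of nearly every translation factor gene. Counting a region as at a gene end when it overlapped the window of 1 kb to either side of that end, 65 of the 71 genes had one (91.5%, Wilson 95% interval 82.8 to 96.1%), against 45.5% of all protein-coding genes. In 64 of the 65 such a region also overlapped the gene itself. An annotated transcription start was at hand for 55 members, and it lay inside a region in 51 of them (92.7%), against 41.7% of all 17492 genes with such a start. The members' regions were of ordinary width. The widest region at an end had a median of 2549 bp (quartiles 1630 and 3326 bp), and the same over all genes was 2316 bp (quartiles 1616 and 3496 bp). Widths above 5 kb were found at 11 of the 71 members, against 6.47% of all genes, and widths above 10 kb at 3, against 1.82% of all genes. Those backgrounds include genes with no region. Over marked genes alone, meaning those with a region at an end, widths above 5 kb made up 16.9% of 65 members and 14.2% of all, and widths above 10 kb 4.62% and 4%. These shares lie close together, and their differences were not tested.

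**Figure D1:**
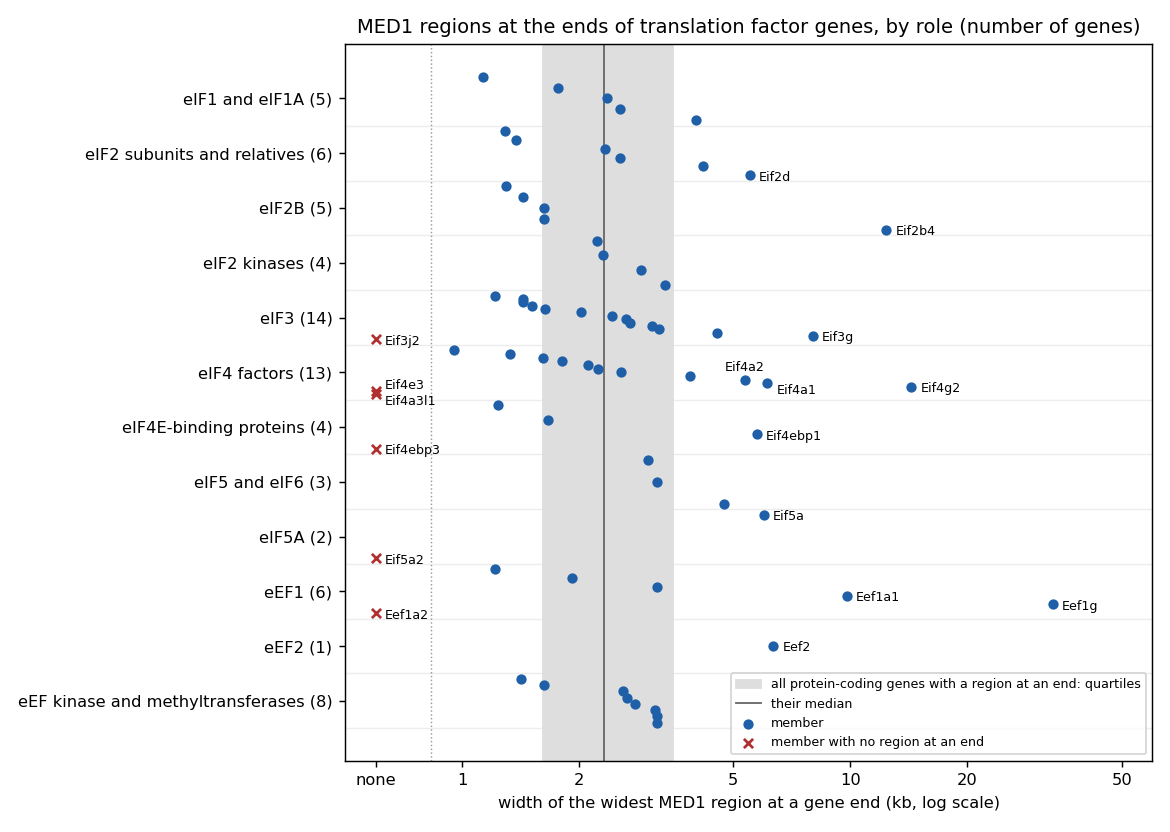
Width of the widest MED1 region at a gene end (kb, log scale) for each translation factor gene, by role; each point is 1 gene, crosses are genes with no region at an end, and the grey band and line give the quartiles and median of all protein-coding genes that have one. Most members sit in or near the band (median 2549 bp), and Eef1g, Eif4g2 and Eif2b4 exceed 10 kb.

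The regions sat at the start of the gene, as at marked genes in general. Of 52 members with an annotated start and a region at an end, 41 had regions at the start only (78.8%), 11 at both ends (21.2%) and 0 at the far end only. Over all 8127 such genes the shares were 79.6, 15.9 and 4.54%. Among members longer than 10 kb, whose ends are well apart, 32 of 36 had regions at the start only (88.9%), against 86.4% of all such genes. The start lay inside a region in 51 of the 52 members, against 86.6% of all genes with a start and a region at an end, and the exception was Eif1ax. Around the 51 starts inside a region, the region reached a median of 976 bp upstream and 1386 bp into the gene, and over all genes 997 and 1169 bp. It reached further into the gene than upstream in 32 of the 51 (62.7%), close to the 59.3% of all genes.

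**Figure D2:**
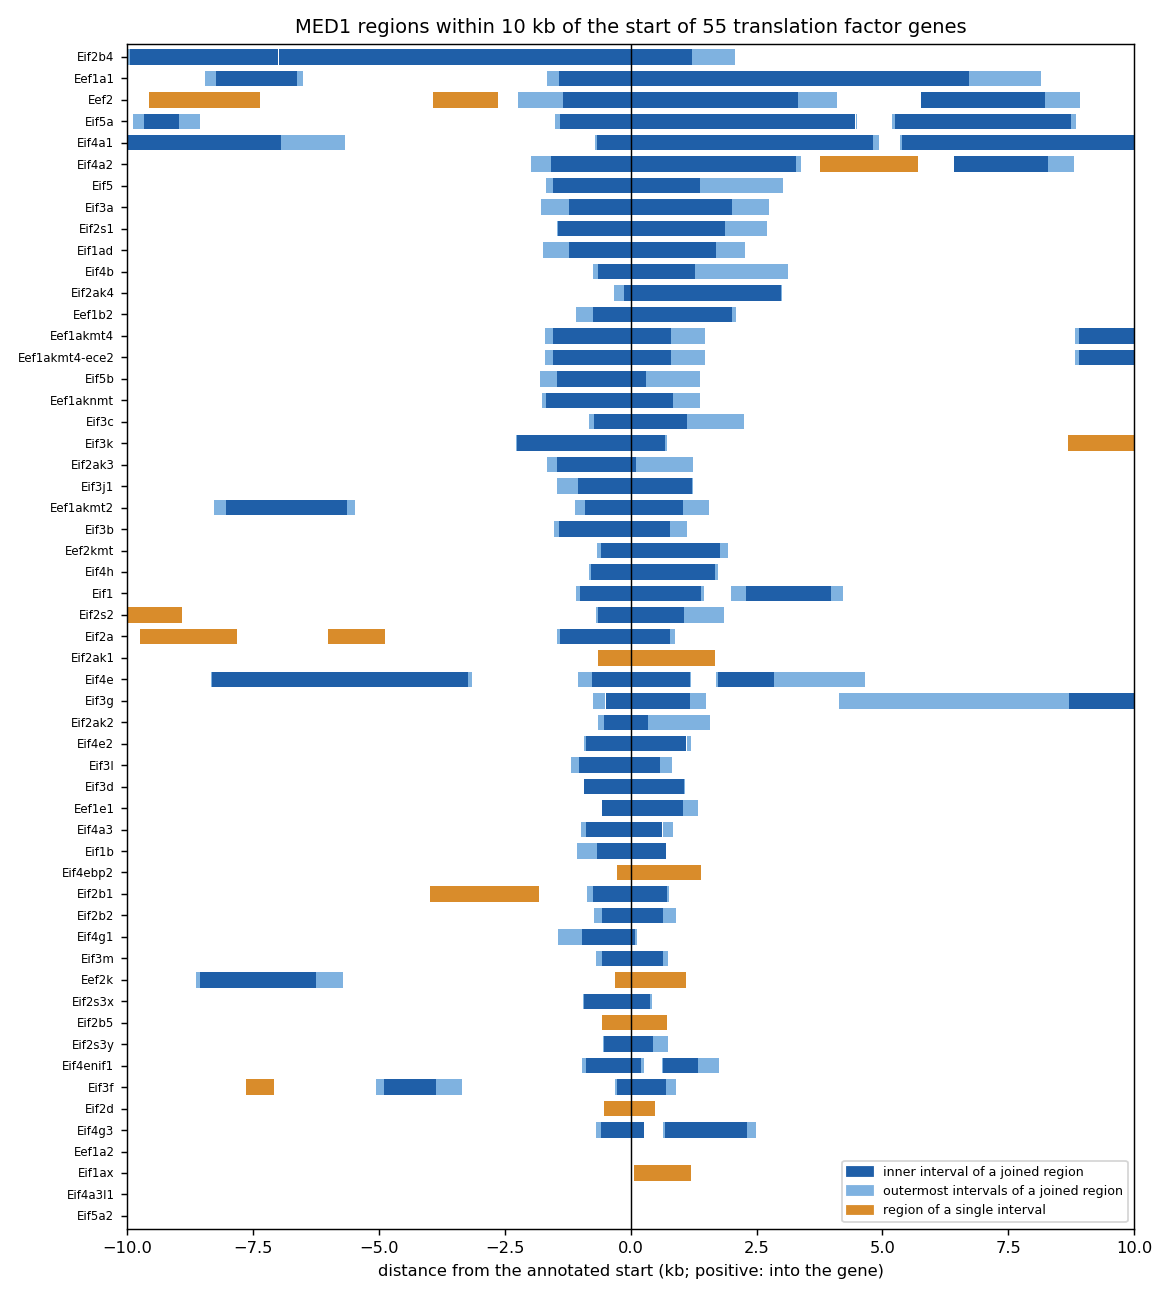
MED1 regions within 10 kb of the annotated start of 55 translation factor genes, 1 gene a row, ordered by the width of the region over the start; the horizontal axis is the distance from the start in kb, positive into the gene. Dark and light blue are the inner and outermost intervals of joined regions and orange marks regions of a single interval; the start falls inside a region in all rows but the lowest 4.

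To show the sequence beneath these regions, 5 start sites are printed, those of the members with the widest regions over a start (Eif2b4, Eef1a1 and Eef2) and those with a C at the annotated start followed by at least 4 pyrimidines (Eif2s3x and Eif3f). Each runs from 200 bases before the RefSeq start to the 20th base of the transcript, on the gene's strand and in build GRCm38.p6, the assembly behind mm10. Capitals mark matches to the motifs searched that lie whole within the stretch and, at Eif2s3x and Eif3f, the pyrimidines from the annotated start onward. Eif2b4 is chr5:31193120-31193339 (minus strand), Eef1a1 chr9:78481705-78481924 (minus strand), Eef2 chr10:81176431-81176650 (plus strand), Eif2s3x chrX:94212632-94212851 (minus strand) and Eif3f chr7:108934215-108934434 (plus strand).
Eif2b4: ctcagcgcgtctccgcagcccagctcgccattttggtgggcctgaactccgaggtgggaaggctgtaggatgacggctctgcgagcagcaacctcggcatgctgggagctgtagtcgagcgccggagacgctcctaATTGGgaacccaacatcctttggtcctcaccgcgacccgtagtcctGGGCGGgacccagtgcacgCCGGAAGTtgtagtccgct
Eef1a1: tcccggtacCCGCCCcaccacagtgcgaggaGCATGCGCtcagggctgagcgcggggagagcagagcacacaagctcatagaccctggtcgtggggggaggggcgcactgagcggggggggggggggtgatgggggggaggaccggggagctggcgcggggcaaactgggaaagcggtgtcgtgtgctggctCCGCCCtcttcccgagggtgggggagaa
Eef2: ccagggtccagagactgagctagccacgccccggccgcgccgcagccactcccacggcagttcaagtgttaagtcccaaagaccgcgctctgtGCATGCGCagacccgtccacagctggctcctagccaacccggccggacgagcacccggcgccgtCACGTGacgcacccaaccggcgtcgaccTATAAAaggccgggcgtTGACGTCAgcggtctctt
Eif2s3x: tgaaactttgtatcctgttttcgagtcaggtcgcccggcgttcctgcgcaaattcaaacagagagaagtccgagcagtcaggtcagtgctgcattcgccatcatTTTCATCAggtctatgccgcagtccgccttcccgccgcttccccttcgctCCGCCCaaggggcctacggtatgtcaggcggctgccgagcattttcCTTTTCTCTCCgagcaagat
Eif3f: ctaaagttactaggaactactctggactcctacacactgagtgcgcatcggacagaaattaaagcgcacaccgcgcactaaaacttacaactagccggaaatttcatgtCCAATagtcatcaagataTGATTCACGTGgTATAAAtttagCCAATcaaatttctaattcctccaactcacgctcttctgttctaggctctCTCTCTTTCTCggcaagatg
In Eef2 the capitals are, in order, NRF1, E-box, TATA box and CRE letters, and the TATA match begins 15 bases before the annotated start. In Eef1a1 they are Sp1/KLF letters on the other strand at both ends and an NRF1 match between them. In this stretch Eif2b4 holds a CCAAT match on the other strand, an Sp1/KLF match and an ETS match. Eif2s3x holds a C/EBP-ATF and an Sp1/KLF match, both on the other strand. Its pyrimidine tract has 16 bases, of which 5 lie before the annotated start and 11 from it onward. Eif3f holds CCAAT letters on either side of an AP-1 match that overlaps an E-box, followed by TATA letters, and its tract has 15 pyrimidines, 4 before the annotated start and 11 from it onward. A YY1 match begins at base 16 of the transcript in Eif2s3x and at base 15 in Eif3f. Both run past the printed end and are not in capitals. Eif3g, whose widest region lay at its far end, had no match in the same stretch.

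Promoters of translation factor genes had more CpG than those of the median gene. Over the 300 bases from 250 before to 50 after the start, matched for 55 of 71 members, the ratio of observed to expected CpG had a median of 0.818 (quartiles 0.754 and 0.986), against 0.577 over all 17492 genes. Genes of any kind whose start lay in a region had a median of 0.792 and the others 0.293. The members were close to the first of these, and the 4 members whose start lay in no region had a median of 0.548. The E-box CACGTG, the letters bound by MYC, USF and TFEB proteins, was in 13 of 55 member promoters (23.6%), against 7.91% of all promoters and 11.2% of promoters whose start lay in a region. One promoter is shared by Eef1akmt4 and its readthrough locus, and counting it once gives 12 of 54 (22.2%). The members with an E-box were Eef2, Eef2k, Eef1akmt4, Eef1aknmt, Eif1b, Eif3a, Eif3f, Eif3k, Eif4a1, Eif4g1, Eif4h and Eif5a2, and Eif5a2 has no region. The other letters were searched on both strands too, and matches of different motifs can overlap. The Sp1/KLF letters GGGCGG were in 72.7% of member promoters (65.6% of all promoters with a start in a region) and the ETS letters CCGGAAGT in 14.5% (10.7%). The YY1 letters AAGATGGC were in 9.09% (5.79%), NRF1 letters GCATGCGC in 9.09% (6.53%), TATAAA in 9.09% (6.65%) and AP-1 letters TGANTCA in 9.09% (4.55%). CCAAT was in 32.7% (40.8%), PU.1 letters GAGGAAGT in 3.64% (3.50%), TGACGTCA in 1.82% (3.89%), C/EBP-ATF letters TGATGNAA in 1.82% (2.26%) and NF-kB letters GGGANTTTC in 1.82% (1.04%). The member shares include the 4 promoters with no region at the start. Over all 17492 promoters the shares were 46.3% for Sp1/KLF, 5.28% for ETS, 3.21% for YY1 and 3.61% for NRF1 letters. They were 13.3% for TATAAA, 7.03% for AP-1, 39.2% for CCAAT and 3.14% for PU.1 letters. For TGACGTCA, C/EBP-ATF and NF-kB letters they were 2.33, 3.68 and 1.11%. With TATAAA the members lay above the bracketed share and below that of all promoters. The members' shares rest on 1 to 40 promoters each, and the differences were not tested.

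Many translation factor mRNAs are TOP mRNAs, which begin with a C and a run of pyrimidines and whose translation depends on mTOR. A C at the annotated start followed by 4 pyrimidines was found in 2 of 55 members (3.64%), against 2.17% of all genes. Among 68 cytosolic ribosomal protein genes the share was 20.6%. When the run could begin within 10 bases to either side of the annotated start, the shares were 30.9% of members, 31.1% of all genes and 57.4% of ribosomal protein genes. Starts were taken from the annotation and were not measured in these cells.

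Leaving out the kinase and methyltransferases, 7 genes carried Eef1 or Eef2 symbols, and 6 of them had a region at an end. Eef1a1, Eef1g and Eef2 were mostly covered by regions. Eef1a1 (chromosome 9, 78478453 to 78481724), the main tRNA-delivering factor, lay whole inside a region of 9793 bp (78473584 to 78483376) that also touched Mto1. The region was made of 5 intervals, reached 1652 bp upstream of the start and went on past the far end of the gene. Its paralogue Eef1a2, which takes over in neurons and muscle, had no region in or at the gene, and the nearest one lay 29.7 kb from an end. Eef2 (chromosome 10, 81176631 to 81182509), the translocase, had a region of 6332 bp over its start and 3170 bp at its far end, the latter with only 119 bp inside Eef2 and the rest towards Dapk3. Together they covered 71.6% of the gene.

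The exchange factor that recharges eEF1A has several subunits. Eef1g (chromosome 19, 8967041 to 8978180) had a region of 5618 bp at its lower end and 33285 bp at its upper end, and 96.8% of the gene was covered. Only 19.6% of the larger region lay inside Eef1g, and it ran on over the neighbouring gene Ahnak. Eef1b2 had 3186 bp over its start and Eef1d 1217 bp at its upper end. Eef1e1, grouped here by its symbol but found with aminoacyl-tRNA synthetases, had 1922 bp over its start. Eef1d had the most regions within 50 kb of its ends of any member, 12. The eEF2 kinase gene Eef2k, whose product stops elongation by phosphorylating eEF2, had a single-interval region of 1417 bp. All 7 loci for methyltransferases that modify eEF1A or eEF2 (Eef1akmt1, Eef1akmt2, Eef1akmt3, Eef1akmt4, its readthrough locus, Eef1aknmt and Eef2kmt) had a region, from 1624 to 3178 bp. Eif5a, the hypusine-bearing factor that helps ribosomes over difficult stretches, had 5991 bp over its start, 3655 bp at its far end and 86.8% of its length covered, and its paralogue Eif5a2 had none, with the nearest region 6.17 kb away.

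The eIF4 factors ranged from the widest regions to none, with 11 of 13 genes marked at an end. The helicase genes Eif4a1 and Eif4a2 had regions of 5651 and 5353 bp over their starts, and 92.5 and 83.6% of these genes were covered. Eif4a1 (chromosome 11, 69666936 to 69672423) also had 6117 bp at its far end, with 140 bp inside Eif4a1 and the rest over the macrophage gene Cd68 and Mpdu1. Eif4a3, a helicase of the exon junction complex, had 1812 bp, and its copy Eif4a3l1 had no region within 50 kb, the nearest being 62.7 kb away. The scaffold gene Eif4g2 (chromosome 7, 111067985 to 111083030), which encodes a cap-independent relative of eIF4G, had 14361 bp at its upper end and 2729 bp at its lower end, covering 97.2% of the gene. Eif4g1, the main scaffold, had 1574 bp over its start, of which 134 bp lay in the gene, and a single interval of 1616 bp at its far end. Its paralogue Eif4g3 had 955 bp, the narrowest of all members' widest regions at an end. A further Eif4g3 region, from 643 to 2480 bp after the annotated start, lay outside the window at the gene end and was not counted. The cap-binding genes Eif4e and Eif4e2 had 2239 and 2114 bp. Their relative Eif4e3, another cap-binding form, had no region at an end and 2 inside the gene, and Eif4e1b, a germline form, had 1 region that began 378 bp beyond the gene, over Tspan17. The helicase cofactors Eif4b and Eif4h had 3865 and 2563 bp.

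Of the inhibitors that hold eIF4E away from the scaffold, Eif4ebp1 (chromosome 8, 27260327 to 27275656) had 5755 bp at its lower end, percentile 88.8 of the widest region per gene over all marked genes. It was the only region within 50 kb. Eif4ebp2 had a single-interval region of 1666 bp, and Eif4ebp3 had none at an end, with the nearest 3.03 kb away and 5 within 50 kb. Eif4enif1, which encodes a carrier that takes eIF4E into the nucleus, had 2 regions, of 1237 and 1131 bp, close to its start.

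The eIF2 subunit genes, their relatives and the eIF2 kinase genes all had a region over the start, none of these start regions above 5 kb. Eif2s1, the alpha subunit that stress kinases phosphorylate, had 4167 bp, Eif2s2, the beta subunit, 2549 bp, and the X-linked gamma subunit gene Eif2s3x 1378 bp. The Y-linked copy Eif2s3y had 1293 bp over its start, and only 4 of the 256 protein-coding genes on that chromosome were marked at an end. The 4 kinases each answer a different stress. Eif2ak4 (GCN2, amino acid shortage) had 3326 bp, 91.3% of it inside the gene. Eif2ak3 (PERK, unfolded proteins in the endoplasmic reticulum) had 2894 bp, Eif2ak1 (HRI, haem shortage) 2312 bp as a single interval and Eif2ak2 (PKR, double-stranded RNA) 2228 bp. The kinase genes each had 3 or 4 regions within 50 kb. Of the tRNA-binding relatives, Eif2a had 2337 bp, and Eif2d had 1018 bp over its start and 5508 bp near its far end, inside both Eif2d and Rassf5.

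The eIF2B genes, which encode the exchange factor that reloads eIF2 with GTP, all had a region. At Eif2b1, Eif2b2, Eif2b3 and Eif2b5 it measured 1295 to 1630 bp. At Eif2b4 it measured 12376 bp in 7 intervals (chromosome 5, 31191070 to 31203445) and reached 10306 bp upstream, over Snx17, Zfp513 and Ppm1g, so that 16.7% of it lay in Eif2b4. Of the 14 eIF3 genes, 13 had a region, with a median of 2435 bp. Eif3g had 2234 bp over its start and 7996 bp at its far end, where 102 bp lay inside Eif3g and the rest towards Ppan. Eif3a, the largest subunit, had 4528 bp over its start, and the copy Eif3j2 had no region, with the nearest 364 kb away. The widest region measured 1134 to 4017 bp at the 5 genes whose symbols begin with Eif1, among them those for eIF1 and eIF1A, which help the ribosome find the start codon. That of Eif1ax was a single interval beginning 59 bp after the start. Eif5, the GTPase activator of eIF2, had 4722 bp, Eif5b, which joins the subunits, 3173 bp, and Eif6, which keeps the large subunit free, 3005 and 2591 bp at its ends.

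The 6 members without a region at an end were Eef1a2, Eif5a2, Eif4e3, Eif4a3l1, Eif4ebp3 and Eif3j2, each of which has a paralogue with a region. How reads that match several near-identical copies were handled is not given in the sources used here, and its part in these absences was not tested. Of the members counted, Eif4g3, Eif4e1b, Eef1d and Eif1ax had their closest region 982, 378, 104 and 59 bp from an annotated end. Eif4g3 has a later annotated start, and that start lay inside the region.

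A few members were covered over most of their length. More than 50% of the gene lay under regions at 9 of 71 members (12.7%), against 4.48% of all genes. They were Eef1a1, Eif4g2, Eef1g, Eif4a1, Eif5a, Eif4a2, Eif1, Eef2 and Eef1b2, with 57.4 to 100% covered. Over marked genes alone the shares were 13.8% of members and 9.79% of all. Short genes are covered more easily. Among genes under 10 kb the count was 7 of 23 members (30.4%), against 10.3% of all such genes. That background includes short genes with no region, and the share over marked short genes alone was not counted.

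The members' surroundings held more regions than those of the median gene and as many as those of the median marked gene. The number of regions within 50 kb of either end had a median of 4 (quartiles 2 and 5, range 0 to 12), against 2 (quartiles 0 and 5) over all genes. Over marked genes alone the median was 4 for members and 4 for all, with quartiles of 3 and 6 in both. At least 1 was present for 69 of 71 members, against 70.5% of all genes, and these counts include the regions at the members' own ends and at neighbouring genes. Eef1d (12), Eef1a1 (11), Eef2 and Eif3i (9 each) and Eif2d, Eif4enif1 and Eif4a1 (8 each) had the most, followed by Eef1akmt2 and Eef1g with 7. At the other end, 9 members with a region at an end had no other region in the window: Eif3j1, Eif3m, Eif3e, Eif4ebp1, Eif1b, Eif1ax, Eif4e1b, Eef1akmt1 and Eif2s3y. A region at an end was shared with the end of another gene, within 1 kb, for 27 of 65 members (41.5%), near the 38.8% found over all 9969 marked genes. Such pairs included Eef1b2 with Ndufs1, Eif5b with Txndc9, Eif2s1 with Atp6v1d, Eif2a with Serp1 and Eif1ad with Banf1.

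**Figure D3:**
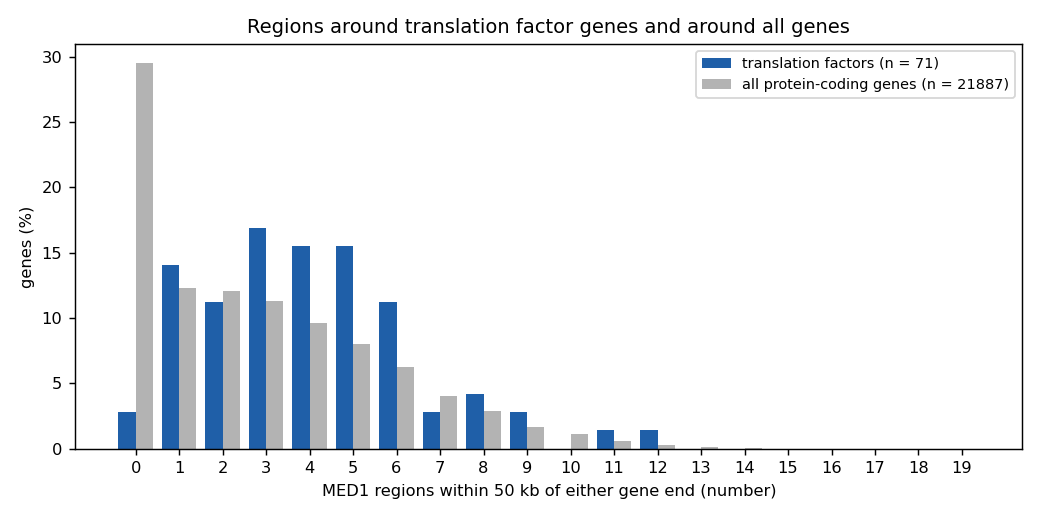
Percentage of genes (vertical axis) by the number of MED1 regions within 50 kb of either gene end (horizontal axis), for translation factor genes (blue, 71 genes) and all protein-coding genes (grey). The blue bars peak at 3 to 5 regions and the grey bars at 0.

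Regions were also stitched into clusters where gaps were at most 12.5 kb, a distance customary for super-enhancers, and the clusters were ranked by the length covered. The largest 5% (677 of 13554) included an end region of 8 members (11.3%), against 5.01% of all genes. Over marked genes alone the shares were close, 12.3% of members and 11% of all. The largest cluster of the list (chromosome 19, 8919539 to 9083825) held Eef1g besides Ahnak. Eif3c lay at the edge of cluster 58, which ran over Cln3, Apobr, Il27 and Nupr1, and Eef1a1 lay with Mto1 and Cgas, the DNA sensor gene, in cluster 170. Eif4a1 lay with Cd68 and Tnfsf13 in cluster 225. Eif4g2 was the only gene in its cluster, of 17.1 kb covered. Eef2, Eif3g and Eif2b4 belonged to clusters of 15.4 to 16.4 kb covered, each with at least 1 neighbour. The other members, among them all 16 kinase, methyltransferase and binding protein genes, had no end region in the largest 5%.

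Other families of ubiquitous genes resembled the translation factors in how often they had a region and differed in its width. A region lay at an end of 90 of 101 genes with Rpl or Rps symbols (89.1%), which are mostly cytosolic ribosomal protein genes but include 10 S6 kinase genes and 2 others (Rps19bp1 and Rps23rg1). Without those it was 82 of 89 (92.1%). The counts were 74 of 78 mitochondrial ribosomal protein genes (94.9%) and 48 of 51 genes with Psm symbols, chiefly proteasome subunits (94.1%), or 46 of 49 (93.9%) without Psmc3ip and Psme3ip1. The intervals of these shares overlap that of the translation factors. The median of the widest region was 4211 bp at genes with Rpl or Rps symbols and 4394.5 bp without the kinases and the other 2. It was 2034.5 bp at mitochondrial ribosomal protein genes and 2202 bp at Psm genes, with and without the 2 left out, against 2549 bp here. Widths above 5 kb were found at 39.3% of the 89 cytosolic ribosomal protein genes, 6.41% of the mitochondrial ones, 0% of Psm genes and 15.5% of translation factors. The 89 genes are short, with a median length of 3164 bp against 15330 bp. More than 50% of the gene was covered at 71.3% of the 101 genes with Rpl or Rps symbols. The share was 11.5% of mitochondrial ribosomal protein genes, 9.80% of Psm genes and 12.7% of translation factors. These differences were not tested.

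Genes of translation that do not carry these symbols had a region about as often. Of 32 genes on a list of release, recycling, mTOR and mitochondrial translation factors, 28 had a region at an end (87.5%), with a median width of 2333.5 bp. Denr, a recycling and re-initiation factor, had the widest at 11231 bp, followed by the release factor gene Etf1 (7893 bp) and the mitochondrial initiation factor gene Mtif2 (7839 bp). The eIF2 phosphatase subunit genes Ppp1r15a and Ppp1r15b had 7750 and 6836 bp, the eIF4E kinase gene Mknk2 7437 bp and Atf4, whose mRNA is translated when eIF2 is phosphorylated, 6440 bp. Larp1, Paip1, Pdcd4 and Gspt2 had none.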

How the data were processed

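MED1 was profiled by ChIP-seq in 4 libraries, with DSG and formaldehyde fixation and 50-bp single reads, per the labels' protocols. Bowtie, SAMtools and MACS2 2.2.6 and build mm10 are named in the submitters' processing notes. Peak-calling settings, any control library and any pooling are not stated in the labels or headers. The authors deposited 53764 intervals, and the deposited score is 0 in every line. Coordinates are 1-based.

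Abutting intervals were joined, and 4 mitochondrial intervals were left out. Gene positions, starts and promoter sequences came from RefSeq GRCm38.p6, and starts were at hand for 55 of 71 members. For genes with several starts, the one nearest the gene end was used. No test was made: 1 list gives no replicate spread, so members are described by counts and medians beside all protein-coding genes. Overlap counting was tested on simulated intervals. Members, lists, motifs and alternatives were chosen with earlier results of these data known. Genes were named for the widest regions, the most and fewest regions within 50 kb, no region at an end, or membership of eIF4F, eIF2 or elongation. Other members, neighbouring genes and the genes singled out among other translation genes for width were named after their values were seen. The backgrounds over marked genes and the removal of kinases and binding proteins from the comparison families were also chosen after seeing the data. The gene cover, cluster and wide-region counts were added after the data were seen. Scripts ran under Python 3.11.15 with pandas 2.3.3 and numpy 2.4.6, with scipy 1.17.1 for intervals and matplotlib 3.10.9 for figures.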

Additional observations from a re-analysis of the deposited data

How the results depend on the processing

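The share of members with a region at an end (91.5%) stayed within its interval in 8 of 10 alternatives. Among the 8, taking deposited intervals one by one could not change the share, since joining touching intervals leaves the covered bases the same. That interval is over genes and measures no spread from processing. Without single-interval regions the share was 84.5% (39.2% of all genes), which counts as within it. The share was 59.2% when regions narrower than the median were left out (28.3% of all genes) and 77.5% when a region's midpoint had to lie in the window (36.8% of all genes). Leaving out the narrower regions also gave 63.6% of starts inside a region (26.1% of all genes). The median number of regions within 50 kb was then 2 (1 over all genes). Regions at member ends then had a median width of 3115.5 bp (3021.5 bp at the ends of all genes). Single intervals made up 5.77% of them (9.1% at the ends of all genes). In the main setting the 80 regions at member ends had a median width of 2492 bp (2144 bp at the ends of all genes). Single intervals made up 13.8% of those 80 (19% at the ends of all genes). Taking deposited intervals one by one gave a median of 9 within 50 kb (5 over all genes). Their median width was 996 bp at member ends and 778 bp at the ends of all genes. By construction this setting gave 100% single intervals, and leaving out single-interval regions gave 0%. The median number of regions was 2 with a window of 10 kb and 6 with 100 kb (1 and 4 over all genes). Allowing the pyrimidine run within 10 bases of the start gave 30.9% instead of 3.64%. No paired analysis was possible because the intervals name no library, and for the same reason no replicate could be left out. Depth is unknown, so an absent region may be below detection.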

Other observations

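Most regions at member ends were made of 3 abutting intervals (65 of 80, 81.3%), as were 75.4% of regions at the ends of all genes, and what separates them is not given in the sources used here. At the 43 starts inside such a region, the start fell in the middle interval every time, and in 96.0% of 5966 cases over all genes. The middle interval took a median of 80.5% of the region, close to the 81.0% of all genes. It was smallest at Eif2ak2, the double-stranded RNA kinase gene, at 39.5% of the region, a share as low or lower at 3.96% of all such genes. Eif4b (49.9%), Eif2ak3 (54.2%) and Eif5b (55.5%) followed.

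At several members the outer interval on the side of the gene body was the longer by far. It measured 1228 bp at Eif2ak2 against 120 bp upstream, 1846 against 92 bp at Eif4b, 1663 against 149 bp at Eif5, 1145 against 100 bp at Eif3c and 1131 against 195 bp at Eif2ak3. At other members the upstream outer interval was the longer by far. It measured 489 bp at Eif4g1 against 33 bp downstream, 415 against 24 bp at Eif3j1 and 392 against 16 bp at Eif1b. The downstream outer interval was the longer in 29 of 43 members (67.4%), against 54.7% of all genes, a difference that was not tested. The region shared by Eef1akmt4 and its readthrough locus enters the 29 for both loci. Since no interval names a library, whether the outer intervals differ between untreated and stimulated cells was not tested.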
